A study of Mus musculus with 6 samples.

Results

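Oxidative phosphorylation was followed at the RNA level in 3 fractions of mouse thymic epithelial cells, the stromal cells that support T cell development, sorted by the activity of a Meis1 reporter. Meis1 is a homeobox transcription factor. The genes were taken by name from the array: the NADH dehydrogenase (Nduf), succinate dehydrogenase (Sdh), ubiquinol-cytochrome c reductase (Uqcr), cytochrome c oxidase (Cox4 to Cox8) and ATP synthase (Atp5) families, with the cytochromes Cycs and Cyc1. That gave 132 probes for 90 of the 28030 genes on the array. They hold 36 subunits of complex I, 4 of complex II, 8 of complex III, cytochrome c, 11 general subunits and 7 tissue-restricted isoforms of complex IV, and 15 subunits of complex V. The other 8 genes are 4 complex I assembly factors (Ndufaf1 to Ndufaf4), the factors Dmac2 and Dmac2l, the supercomplex factor Cox7a2l, and Emc8, which meets the rule only through an older name and belongs to a membrane protein complex of the endoplasmic reticulum.

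All cells came from C57BL/6 mice aged 4 weeks that carry the BAC transgene Tg(Meis1-EGFP)FO156Gsat/Mmcd, in which a large genomic fragment around Meis1 drives green fluorescent protein. EGFP therefore reports that transgene, and the gates are gates on its fluorescence and on cell size. CD45-negative, EpCAM-positive cells were sorted as Meis1-high (bright EGFP, low forward scatter), Meis1-low (intermediate EGFP, high forward scatter) and Meis1-negative (no EGFP, low forward scatter). Each gate has 2 arrays, from 2 experiments on pools of 6 mice, and the arrays numbered 1 shared slide 1 and its scan while those numbered 2 shared slide 2. Forward scatter tracks cell size, so EGFP level and size cannot be told apart in any comparison with Meis1-low. The fractions are called the high, low and negative gates here.

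The respiratory chain passes electrons from NADH (complex I) or succinate (complex II) through ubiquinone, complex III and cytochrome c to oxygen at complex IV, and complex V uses the resulting proton gradient to make ATP. Most subunits are encoded in the nucleus, while a small set of core subunits is encoded in mitochondrial DNA and transcribed inside the organelle. Many nuclear genes of the chain carry binding motifs for the factors NRF1, GABP (an ETS factor) and YY1 near their start sites, and PGC-1 coactivators and estrogen-related receptors are known regulators of their expression. Complex IV also has paralogous isoforms that are known mainly from muscle, lung or testis.

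Promoter sequence is shown for 5 subunits because members with the same motif had fitted differences of opposite sign between gates, though none passed the test. Each window is the 62 bases before the RefSeq start site in GRCm38.p6, written along the gene's own strand, and capitals mark a motif match on either strand. Cycs lies at chr6:50566570-50566631 (minus strand), Ndufc2 at chr7:97399941-97400002 (plus), Cox6a1 at chr5:115348959-115349020 (minus), Ndufb10 at chr17:24724424-24724485 (minus) and Ndufa11 at chr17:56717700-56717761 (plus).
Cycs: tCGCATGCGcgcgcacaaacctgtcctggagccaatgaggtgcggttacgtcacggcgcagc
Ndufc2: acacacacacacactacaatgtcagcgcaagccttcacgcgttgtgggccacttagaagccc
Cox6a1: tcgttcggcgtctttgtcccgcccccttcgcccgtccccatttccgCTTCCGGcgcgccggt
Ndufb10: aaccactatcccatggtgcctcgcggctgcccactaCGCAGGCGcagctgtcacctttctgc
Ndufa11: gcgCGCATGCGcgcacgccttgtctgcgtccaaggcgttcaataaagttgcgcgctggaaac
The first base of the NRF1 motif lay 61 bases before the start in Cycs and 59 bases before it in Ndufa11, with the same letters in both. Between the high and the low gate the log2 difference of Cycs was -1.18 and that of Ndufa11 was 0.97, neither past the test threshold. The value for Cycs is that of its brightest probe, and another of its probes gave -0.23. Ndufb10 held another form of the NRF1 motif 26 bases before its start, Cox6a1 an ETS motif 16 bases before, and Ndufc2, with a difference of -1.28, held none of the 3 motifs in this window.

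Over the longer RefSeq window, from 250 bases before to 50 bases after a start site, 74 of the 90 genes could be matched. The NRF1 motif (CGCANGCG, either strand) was in the windows of 28 of these 74, or 37.8%, against 9.22% of the 27025 genes in the table and 16.7% of those tested here. The ETS motif (CCGGAAG) was in 23.0%, against 9.93% of all genes and 17.2% of those tested. The YY1 motif (AAGATGGCG) was in 10.8%, against 1.64% and 2.97%. The 25 subunits with the NRF1 motif had a median difference between the high and the low gate of -0.44, and the 38 without it had -0.50. Each motif was searched on both strands, and matches can share letters, since the ETS motif ends in the AAG that opens the YY1 motif, so the shares are not separate. A match is a string of letters and not a measured binding site.

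Levels are log2 signals relative to the 75th percentile of their array, so 0 is the signal at that percentile and 1 unit is a doubling. Of the 90 genes, 88 were well above background, by the scanner's own mark, on both arrays of at least 1 gate and were tested, and 85 were so on all 6 arrays. The remaining genes, the complex IV isoforms Cox7b2 and Cox8c (the latter known from testis), were well above background on 0 arrays. All 12 epithelial markers, among them Epcam, were well above background on all 6 arrays, as were 9 of 10 pan-leukocyte markers, although CD45-negative cells had been sorted. The pan-leukocyte markers had a median level of 3.07 and 2.21 on the negative-gate arrays and from 0.32 to 0.997 on the other 4. The thymocyte markers had a median of 3.84 on negative-gate array 1, of -0.14 on array 2, and between -1.99 and -1.53 on the other 4. The epithelial markers had their lowest median, 1.70, on negative-gate array 1, with 3.27 on array 2 and between 2.89 and 3.72 on the other 4. Signal at the 75th percentile ranged from 73.3 on high-gate array 1 to 165.2 on negative-gate array 2.

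No member passed the test in any comparison, and neither did any other gene. With limma over 18198 genes and Benjamini-Hochberg adjustment at a threshold of 0.05, 0 genes (0.0%) were called between any pair of gates, and 0 by the F test over the 3 gates. The smallest adjusted p of a member was 0.329 between the high and low gates, 0.404 between high and negative, and 0.625 between low and negative. At an unadjusted p below 0.05 the counts over all genes in that order were 2356 (12.9%), 1917 (10.5%) and 1471 (8.08%), and among the 88 members they were 1, 1 and 0. The standard error of a member's difference was typically 0.65, so with 2 arrays per gate a difference near 1 log2 unit lay within about 2 standard errors. The values that follow describe levels, directions and their repeat across the slides.

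The members as a group sat lower in the high gate than in the low gate. The median difference was -0.50 over the 88 members, a 1.42-fold lower level, against -0.15 over all genes. It was -0.54 on slide 1 and -0.37 on slide 2, where all genes had -0.21 and -0.07. The mean was lower in 78 of 88 members (55.3% of all genes) and higher in 10 (44.7%). On both slides 66 were lower (40.7%) and 4 were higher (31.6%). Both high-gate arrays lay below both low-gate arrays in 35 members (31.0% of all genes) and above them in 3 (22.7%). The members are bright, and bright genes leaned the same way: the median was -0.24 over the 2233 genes with a mean level above 2 to 4 and -0.26 over the 935 genes above 4. Both high-gate arrays lay below both low-gate arrays in 801 of these 2233 genes and above them in 435. Among the 935 brightest genes these counts were 326 and 126. The members' median was -0.16 without low-gate array 1, where all genes had -0.15, and -0.26 without high-gate array 2, where all genes had -0.19. Without low-gate array 2 it was -0.82, against -0.18 over all genes. The members thus lay barely below all genes when low-gate array 1 was left out.

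Against the negative gate, which shares the low forward scatter, the high gate also had the lower levels. The median difference of the members was -0.33, against -0.10 over all genes, with -0.34 on slide 1 and -0.28 on slide 2. The mean was lower in 79 of 88 members (53.6% of all genes) and higher in 9 (46.4%). On both slides 61 were lower (30.7%) and 3 were higher (28.4%). The arrays did not overlap in 26 members that were lower in the high gate (19.9% of all genes) and in 2 that were higher (19.3%). The median was -0.26 over all genes with a mean level above 2 to 4 and -0.34 over those above 4, close to that of the members. Without overlap, the high gate was lower in 552 and higher in 335 of the 2233 genes above 2 to 4. Among the 935 genes above 4 these counts were 246 and 132. Without high-gate array 2 the members' median was -0.072, against -0.12 over all genes. Without negative-gate array 1, which carried the high thymocyte markers, it was -0.075, also against -0.12. In both of these fits the members were thus not lower than all genes.

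The low and negative gates lay closer together. The median difference was 0.11, against 0.05 over all genes. The mean was higher in the low gate in 56 of 88 members (52.0% of all genes) and lower in 32 (48.0%). On both slides 36 were higher (33.8%) and 10 were lower (28.7%). In 11 the arrays did not overlap with the low gate above (23.5%), and in 0 with the low gate below (15.8%). The median ranged from -0.19 without negative-gate array 2 to 0.45 without low-gate array 2. The comparisons of the high gate share its arrays and are not independent. In bulk RNA, fewer cells of a type and less RNA per cell cannot be told apart, and 10 ng of RNA was amplified from each pool.

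The difference between slides was about as large as that between gates. The median member level was 3.33 and 2.90 in the high gate on slides 1 and 2, against 4.02 and 3.34 for the low gate and 3.71 and 3.20 for the negative gate. The high-gate median of slide 1 thus lay at the low-gate median of slide 2, while within each slide the order was high, negative, low. Slide 1 exceeded slide 2 by a median of 0.43, 0.56 and 0.55 in the high, low and negative gates. The high gate had the lowest level of the 3 for 65 of 88 members on slide 1, for 71 on slide 2, and for 54 on both. That is 61.4%, against 21.0% of all genes. Among bright genes the share was 30.4% at a mean level above 2 to 4 and 39.7% above 4.

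Per-gene values are log2 levels with slide 1 first, and differences are fitted means over 2 arrays per gate with the standard error (SE) of the fit. In complex I, the entry point for NADH, 31 of 36 subunits had lower means in the high gate than in the low gate, with a median of -0.43, and 26 were lower on both slides. Among the 7 core subunits, which carry the flavin, the iron-sulfur clusters and adjoining sites, the median was -0.28 and 3 were lower on both slides. Among the 29 other subunits, which surround the core, it was -0.51 and 23 were lower on both slides. This split was not tested.

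Ndufc2, an accessory subunit of the membrane arm, had the lowest difference in complex I. Its probe (mm9 chr7:104555383-104555442) read 4.59 and 4.17 in the high gate, 6.00 and 5.32 in the low gate and 4.76 and 5.07 in the negative gate. Both high-gate arrays lay below the other 4, and both low-gate arrays lay above them. The difference was -1.28 ± 0.62 between high and low (limma adjusted p = 0.439) and -0.54 ± 0.62 between high and negative (adjusted p = 0.784).

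Ndufa11, an accessory membrane-arm subunit, went the other way. Its probe (mm9 chr17:56857241-56857300) read 2.15 and 2.17 in the high gate, 0.96 and 1.43 in the low gate and 0.92 and 1.44 in the negative gate. The high-gate arrays were above all others, and the low and negative gates lay close to each other on each slide. The difference was 0.97 ± 0.60 against the low gate (adjusted p = 0.553) and 0.98 ± 0.60 against the negative gate (adjusted p = 0.628). Another probe gave 0.92 and 0.84, but it shares 50 bases with the first.

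Ndufs8, a core iron-sulfur subunit, read 0.27 and -0.61 in the high gate, -0.73 and -0.65 in the low gate and -0.23 and -0.72 in the negative gate. Both high-gate arrays lay above both low-gate arrays, the one on slide 2 by a small margin, and negative-gate array 1 lay between them. The difference from the low gate was 0.52 ± 0.63 (adjusted p = 0.769). Ndufv1, the flavin subunit that takes electrons from NADH, was nearly flat across gates. It read 3.54 and 2.49 in the high gate, 3.54 and 2.46 in the low gate and 3.55 and 2.53 in the negative gate, so its arrays differed by slide far more than by gate. The accessory subunit Ndufa5 had a similar flat pattern, with 4.70 and 3.94 in the high gate, 4.72 and 3.83 in the low gate and 4.77 and 3.87 in the negative gate.

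Complex II links the tricarboxylic acid cycle to the chain, and all 4 subunits had lower means in the high gate than in the low gate, by unequal amounts. Sdhd, a small membrane anchor (probe at mm9 chr9:50404630-50404689), read 3.097 and 3.44 in the high gate, 4.73 and 4.12 in the low gate and 4.39 and 3.98 in the negative gate, with both high-gate arrays below the other 4. The difference was -1.16 ± 0.61 against the low gate (adjusted p = 0.480) and -0.92 ± 0.61 against the negative gate (adjusted p = 0.651). The other anchor subunit, Sdhc, read 3.56 and 2.79 in the high gate, 3.74 and 3.19 in the low gate and 3.78 and 3.19 in the negative gate, and its gates overlapped. The flavoprotein Sdha and the iron-sulfur subunit Sdhb were highest on negative-gate array 1, at 3.15 and 2.69, the array with the high thymocyte markers. On the other 5 arrays Sdha ranged from 0.98 to 1.85 and Sdhb from 1.35 to 2.11. Another Sdha probe of the same transcript record rose less, with 1.76 on negative-gate array 1 and 0.85 to 1.27 on the other 5. The part of thymocyte RNA in these values was not tested.

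In complex III, which passes electrons from ubiquinol to cytochrome c, all 8 subunits had lower means in the high gate than in the low gate, with a median of -0.56, and 7 were lower on both slides. Cyc1, the cytochrome c1 subunit (probe at mm9 chr15:76175938-76175997), read 2.30 and 2.09 in the high gate, 3.80 and 2.60 in the low gate and 2.65 and 2.54 in the negative gate. Both high-gate arrays were the lowest of the 6, and low-gate array 1 stood above the rest. The difference from the low gate was -1.003 ± 0.66 (adjusted p = 0.574). Uqcrfs1, the Rieske iron-sulfur subunit, read 4.44 and 4.03 in the high gate, 5.53 and 4.66 in the low gate and 4.88 and 4.45 in the negative gate, and its high-gate arrays were also the lowest. The core protein Uqcrc1 was the flattest, with 2.80 and 1.77 in the high gate, 3.11 and 1.70 in the low gate and 3.22 and 1.69 in the negative gate.

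Cytochrome c (Cycs, probe at mm9 chr6:50515255-50515314), the mobile carrier between complexes III and IV and a trigger of apoptosis when released, read 3.19 and 3.27 in the high gate, 4.63 and 4.18 in the low gate and 3.40 and 4.09 in the negative gate. On this probe both high-gate arrays were the lowest and both low-gate arrays the highest. The difference was -1.18 ± 0.61 against the low gate (adjusted p = 0.475) and -0.52 ± 0.61 against the negative gate (adjusted p = 0.789). The 3 probes of Cycs ranged from -1.18 to -0.23 in the first of these differences. On the other, dimmer probes the high gate was below the low gate on each slide, but the arrays of the gates overlapped.

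The 11 general subunits of complex IV had a median of -0.60 between the high and low gates, and 9 were lower on both slides. Cox7a2, a small structural subunit, read 4.75 and 4.40 in the high gate, 5.63 and 5.21 in the low gate and 5.18 and 4.83 in the negative gate, so the gates kept their rank on both slides. Its difference from the low gate was -0.84 ± 0.60 (adjusted p = 0.604), and its other probe gave -0.83. Ndufa4, named for complex I but a complex IV subunit, read 5.01 and 5.78 in the high gate, 6.31 and 6.13 in the low gate and 5.57 and 6.05 in the negative gate. The high gate was lowest on each slide, and the difference from the low gate was -0.83 ± 0.62 (adjusted p = 0.622). Cox7c was the exception, with 3.40 and 3.101 in the high gate, 2.48 and 3.34 in the low gate and 3.02 and 3.14 in the negative gate, values that overlap.

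The isoforms of complex IV that are known from particular tissues did not share a direction. Cox4i2, the isoform known from lung and induced by low oxygen (probe at mm9 chr2:152579950-152580939), read -2.12 and -2.92 in the high gate, -3.23 and -3.52 in the low gate and -3.46 and -3.51 in the negative gate, and the high-gate arrays were above the other 4. The difference was 0.85 ± 0.62 against the low gate (adjusted p = 0.611) and 0.97 ± 0.62 against the negative gate (adjusted p = 0.639). Its general counterpart Cox4i1 leaned the other way, with 6.27 and 5.61 in the high gate, 6.81 and 6.27 in the low gate and 6.63 and 6.28 in the negative gate and differences of -0.60 ± 0.62 (adjusted p = 0.730) and -0.52 ± 0.62 (adjusted p = 0.794). Cox4i2 is dim, and with normexp background correction its difference from the low gate was 0.036.

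Cox6a2, the isoform of heart and skeletal muscle (probe at mm9 chr7:135349160-135349219), had the smallest p of all members between the high and low gates. It read -1.97 and -2.86 in the high gate, -0.39 and -0.85 in the low gate and -0.63 and -1.36 in the negative gate. Both high-gate arrays lay below the other 4, and the differences were -1.79 ± 0.66 against low (adjusted p = 0.329) and -1.42 ± 0.66 against negative (adjusted p = 0.512). Its general counterpart Cox6a1 read 6.18 and 5.32 in the high gate, 6.53 and 6.16 in the low gate and 5.96 and 5.88 in the negative gate, and the gates overlapped. Cox7a1, also a muscle isoform, read -0.67 and -1.89 in the high gate, -0.49 and -0.48 in the low gate and -0.09 and -0.999 in the negative gate, a difference of -0.79 ± 0.70 from the low gate (adjusted p = 0.681). Of 18 muscle markers tested, 9 were lower in the high gate than in the low gate on both slides and 4 were higher, with a median of -0.56, while against the negative gate the median was 0.67. Their part in the muscle isoforms was not tested.

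Cox6b2, the testis isoform (probe at mm9 chr7:4703488-4703547), had the widest range of the members tested. It read -1.48 and -0.54 in the high gate, 0.08 and 0.51 in the low gate and 2.88 and 0.34 in the negative gate. The high-gate arrays were lowest, and the value of 2.88 came from the array with the high thymocyte markers, whose part in it was not tested. The differences of the high gate were -1.31 ± 0.92 from low (adjusted p = 0.601) and -2.62 ± 0.92 from negative (adjusted p = 0.404). Without negative-gate array 2 the latter was -3.89, a value for which array 1 alone stands for the negative gate. Cox8b, another muscle isoform, read -2.18 and -3.19 in the high gate, -3.13 and -2.69 in the low gate and -3.82 and -1.997 in the negative gate, with no order among the gates.

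**Figure D1:**
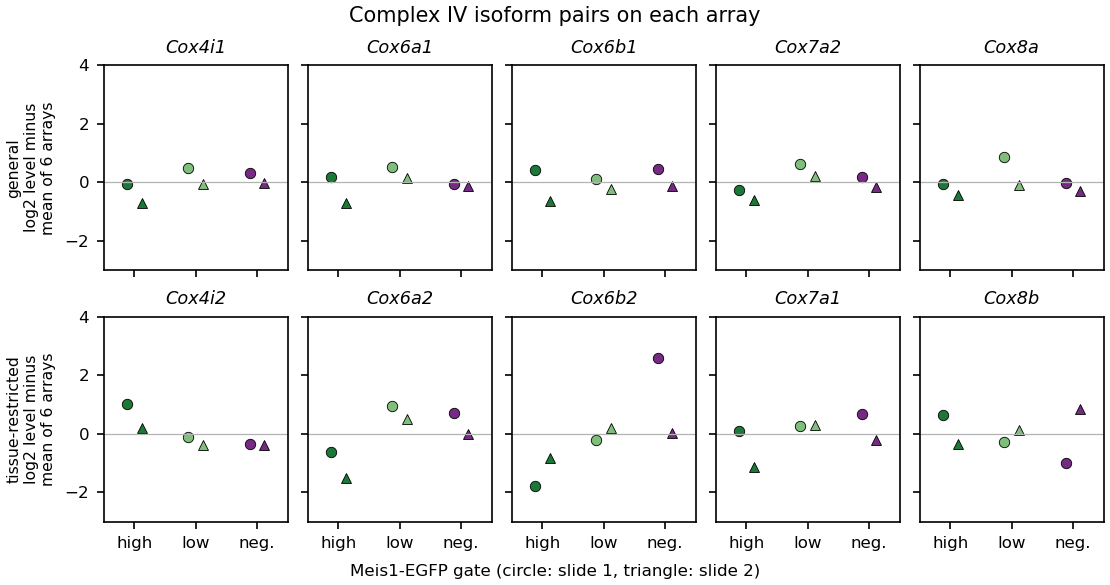
Log2 level of each complex IV isoform on each array, minus its own mean over the 6 arrays (vertical axis), for the general form (top) and the tissue-restricted form (bottom). Circles are slide 1 and triangles slide 2. Cox4i2 is highest and Cox6a2 and Cox6b2 are lowest on the Meis1-high arrays, and Cox6b2 on Meis1-negative array 1 stands above all others.

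In complex V, the ATP synthase, 14 of 15 subunits had lower means in the high gate than in the low gate, with a median of -0.39, and 13 were lower on both slides. The 5 subunits of the catalytic head and central stalk had a median of -0.68, and 5 of 5 were lower on both slides. The catalytic subunit Atp5b read 5.84 and 6.28 in the high gate, 6.58 and 6.89 in the low gate and 6.54 and 6.59 in the negative gate. Atp5a1, the partner of Atp5b in the head, read 6.22 and 6.46 in the high gate, 7.43 and 6.72 in the low gate and 7.02 and 6.48 in the negative gate. The central stalk subunit Atp5c1 read 3.32 and 3.21 in the high gate, 4.40 and 3.77 in the low gate and 4.40 and 3.64 in the negative gate. On these probes of the 3 genes both high-gate arrays lay below the other 4. A further Atp5a1 probe overlapped with the negative gate, with 5.05 on high-gate array 1 and 5.02 on negative-gate array 2. The further probes of Atp5b overlapped with both other gates. For Atp5c1 the differences were -0.82 ± 0.63 from low (adjusted p = 0.634) and -0.76 ± 0.63 from negative (adjusted p = 0.721).

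Atp5pb, the b subunit of the peripheral stalk, had the lowest difference in complex V, and only 1 of its 3 probes gave it. The brightest probe (mm9 chr3:105745871-105745930) read 3.32 and 3.79 in the high gate, 5.13 and 4.63 in the low gate and 4.67 and 4.18 in the negative gate, with both high-gate arrays below the other 4. Its differences were -1.32 ± 0.62 from low (adjusted p = 0.424) and -0.86 ± 0.62 from negative (adjusted p = 0.673). The other probes, listed for other transcript records and much dimmer, differed from the low gate in the opposite direction, and the mean of the 3 was 0.034 there. Among the genes for the c ring, which encode the same mature protein, Atp5g1 read 0.98 and 0.59 in the high gate, 0.76 and 0.86 in the low gate and 1.24 and 0.59 in the negative gate. Atp5g3 read 5.84 and 5.05 in the high gate, 5.36 and 5.37 in the low gate and 5.65 and 5.17 in the negative gate, and neither of these ordered the gates. Atp5g2 read 5.01 and 4.18 in the high gate, 5.50 and 4.46 in the low gate and 5.88 and 4.63 in the negative gate, in the order high, low, negative on both slides, with arrays that overlap between gates.

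Of the members that are not subunits, the assembly factor Ndufaf3 read -1.99 and -2.53 in the high gate, -0.55 and -1.72 in the low gate and -1.60 and -1.78 in the negative gate, a difference of -1.12 ± 0.67 from the low gate (adjusted p = 0.529), with both high-gate arrays the lowest. Ndufaf4, another assembly factor, overlapped between gates, with 1.37 and 1.15 in the high gate, 1.16 and 1.30 in the low gate and 2.20 and 1.16 in the negative gate. Cox7a2l, which helps to join complexes III and IV, read 1.77 and 2.45 in the high gate, 1.83 and 2.75 in the low gate and 2.87 and 2.69 in the negative gate. Emc8, no respiratory gene, differed by -1.29 ± 0.69 from the low gate (adjusted p = 0.488), a size near the lowest among the subunits.

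At least 2 probes were tested for 27 members. They disagreed in sign in 9 genes between high and low, in 4 between high and negative, and in 8 between low and negative. In the first comparison these were Atp5b, Atp5g2, Atp5pb, Dmac2l, Ndufb2, Ndufb8, Ndufs1, Ndufv3 and Sdha. For Sdha the probes ranged from -0.28 to 1.45, and the highest value came from a dim probe. Probes of Cox7a2, Ndufa8, Atp5a1 and Uqcrh gave nearly equal differences, the last with -0.65 and -0.60. Atp5a1, Cox7c, Ndufa8, Ndufb10, Ndufs8 and Uqcrh were chosen for naming after their values were seen.

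**Figure D2:**
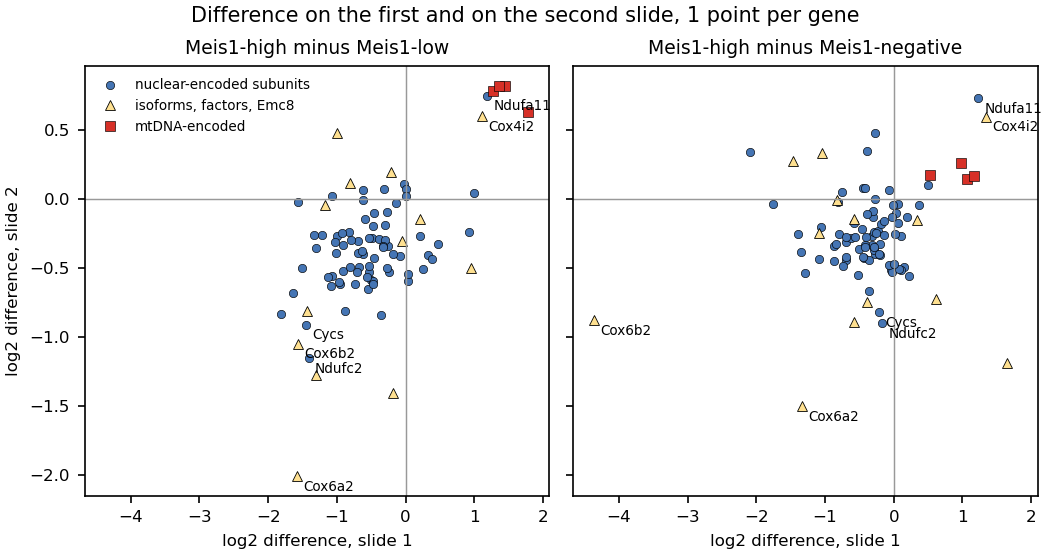
Log2 difference on slide 1 (horizontal axis) against slide 2 (vertical axis), 1 point per gene, for Meis1-high minus Meis1-low (left) and minus Meis1-negative (right). Of the 88 members, 66 lie in the lower left quadrant on the left and 61 on the right, and the mitochondrially encoded genes (squares) lie in the upper right quadrant of both.

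The subunits encoded in mitochondrial DNA went against those encoded in the nucleus. The array names 4 of them: ND4, a core subunit of complex I, CYTB, the cytochrome b of complex III, COX2, a catalytic subunit of complex IV, and ATP6, a membrane subunit of complex V. All 4 were higher in the high gate than in the low gate on both slides, with a median of 1.11, where the 75 nuclear-encoded subunits had -0.51. They were also higher than in the negative gate on both slides, with a median of 0.61 against -0.31. Without high-gate array 1 the mitochondrially encoded median was 0.19, with 3 of 4 above 0. The nuclear-encoded median was -0.046 without high-gate array 2 and -0.056 without negative-gate array 1, where all genes had -0.12 in each. None of the 4 depends on these medians for its own values. None passed the test.

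ND4 (mm9 chrM:11370-11429) read 8.89 and 8.24 in the high gate, 7.44 and 7.42 in the low gate and 7.82 and 8.09 in the negative gate. Both high-gate arrays were the highest of the 6 and both low-gate arrays the lowest. The difference from the low gate was 1.14 ± 0.60 (adjusted p = 0.483), and that from the negative gate was 0.61 ± 0.60 (adjusted p = 0.755). CYTB read 7.64 and 7.18 in the high gate, 6.36 and 6.40 in the low gate and 6.47 and 7.02 in the negative gate, with differences of 1.03 ± 0.61 (adjusted p = 0.524) and 0.67 ± 0.61 (adjusted p = 0.740). The high gate was again at the top and the low gate at the bottom.

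COX2 read 9.35 and 8.11 in the high gate, 7.57 and 7.48 in the low gate and 8.83 and 7.94 in the negative gate, with differences of 1.21 ± 0.70 from low (adjusted p = 0.519) and 0.35 ± 0.70 from negative (adjusted p = 0.876). ATP6 read 8.09 and 7.05 in the high gate, 6.74 and 6.23 in the low gate and 7.11 and 6.78 in the negative gate, with differences of 1.09 ± 0.66 (adjusted p = 0.537) and 0.62 ± 0.66 (adjusted p = 0.768). In COX2 and ATP6 negative-gate array 1 was above high-gate array 2, so these gates overlapped, while the high and low gates did not. Against the negative gate COX2 was below 0 without high-gate array 1 (-0.27) and without negative-gate array 2 (-0.10). A further pair of unnamed probes on mitochondrial DNA kept the order high, negative, low on each slide. The first (chrM:11419-11475) overlaps the ND4 probe, and the second (chrM:7965-8024) lies just before the ATP6 probe (chrM:8061-8120). Neither is counted as a further gene. These genes are transcribed together from long precursors and are not independent of each other.

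Taking the median of the 4 mitochondrially encoded genes minus the median of the 75 nuclear-encoded subunits on the same array removes the scaling between arrays. This gap was 4.95 and 4.42 in the high gate, against 2.73 and 3.29 for the low gate and 3.45 and 3.91 for the negative gate. The high gate exceeded the low gate by 2.22 on slide 1 and 1.13 on slide 2, and the negative gate by 1.499 and 0.51. The order high, negative, low was thus the same on both slides. No p is given for these medians, and a gap within an array does not say which side of it differed. The direction of both groups between the high and low gates was the same with the deposited values, mean of probes, median scaling, normexp and quantile normalization. There the mitochondrially encoded median ranged from 1.09 to 1.18 and the nuclear-encoded one from -0.53 to -0.29. The rest of the 12 other settings, such as array weights or the replicate block, returned the same medians of 1.11 and -0.51. Those settings do not bear on the direction.

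**Figure D3:**
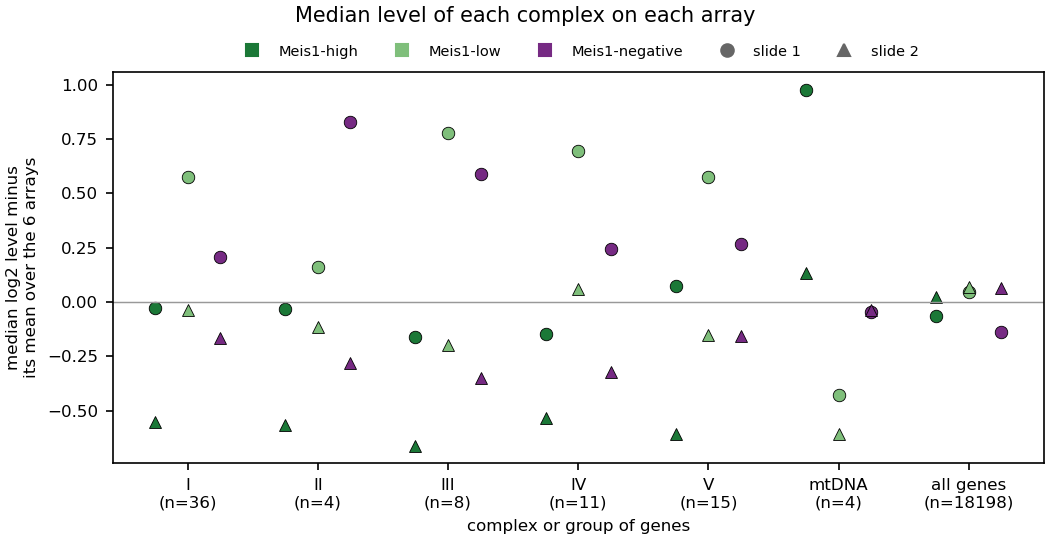
Median log2 level of each complex on each array, minus its own mean over the 6 arrays (vertical axis), by gate (colour) and slide (shape). Within each slide the Meis1-high points are lowest for complexes I to V and highest for the mitochondrially encoded genes, and the medians of all genes stay near 0.

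Other readouts differed between the same gates. Of 12 immediate-early and heat-shock genes that respond to tissue dissociation, 11 were higher in the high gate than in the low gate on both slides, with a median of 1.09, and 12 were higher than in the negative gate, with a median of 1.33. Their median level was 4.61 and 4.66 in the high gate, against 2.54 and 3.51 for the low gate and 2.93 and 3.59 for the negative gate. All 16 cell cycle genes were lower in the high gate than in either other gate on both slides, with medians of -1.29 and -1.77. The 7 erythroid markers tested were lower in the high than in the low gate on both slides, with a median of -2.90, as were 5 of 6 adipocyte markers (median -2.13) and 8 of 11 dendritic cell and macrophage markers (median -1.81). Against the negative gate, 14 of 16 thymocyte markers (median -3.30) and 6 of 6 B cell markers (median -2.45) were lower in the high gate on both slides. The part of these lists in the respiratory genes was not tested.

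Other mitochondrial and energy genes leaned the way of the nuclear-encoded subunits, and no gene of these lists passed the test. Part of this lean is shared by the array. Over all genes 55.3% had lower means in the high than in the low gate and 53.6% than in the negative gate. The medians of genes with a mean level above 2 to 4 were -0.24 and -0.26, and those of genes above 4 were -0.26 and -0.34. Of the 78 mitochondrial ribosomal proteins, which translate the mitochondrially encoded subunits, 59 had lower means in the high gate than in the low gate (median -0.38) and 68 than in the negative gate (median -0.58). Of 24 genes of the tricarboxylic acid cycle and pyruvate entry, 18 and 20 were lower (medians -0.44 and -0.40). Of 30 genes of import and the inner membrane, 23 and 26 were lower (-0.41 and -0.56), and of 34 further assembly factors, 22 and 27 were lower (-0.25 and -0.34).

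Glycolysis, which makes ATP without the respiratory chain, leaned the same way. Of its 21 genes, 17 had lower means in the high gate than in the low gate (median -0.61, 55.3% of all genes). Against the negative gate 14 were lower (median -0.33, 53.6% of all genes), near the median of -0.34 over all genes with a mean level above 4. Hexokinase 2 (Hk2), which traps glucose in the cell, read 0.41 and 1.37 in the high gate, 3.28 and 2.56 in the low gate and 2.08 and 2.49 in the negative gate, with both high-gate arrays below the other 4. Its difference from the low gate was -2.03 ± 0.66 (adjusted p = 0.292). The lactate transporter Slc16a1 read 0.62 and 0.45 in the high gate, 2.43 and 2.24 in the low gate and 4.16 and 2.09 in the negative gate, a difference of -2.59 ± 0.79 from the negative gate (adjusted p = 0.355).

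The regulators of mitochondrial biogenesis had no common direction across slides. Over the 21 tested, the median between the high and low gates was -0.58 on slide 1 and 0.10 on slide 2. The mean was lower in the high gate than in the low gate in 12 and higher in 9. Against the negative gate it was lower in 15 and higher in 6. Both high-gate arrays lay above both low-gate arrays in 1 of the 21 (22.7% of all genes) and below them in 7 (31.0%). Against the negative gate these counts were 2 (19.3%) and 5 (19.9%). Tfam, the packaging and transcription factor of mitochondrial DNA, read 4.01 and 3.65 in the high gate, 3.09 and 3.31 in the low gate and 3.02 and 3.38 in the negative gate, with the high-gate arrays above the other 4. Nrf1, whose motif lies in 3 of the printed promoters, read 1.10 and 0.25 in the high gate, 0.51 and -0.61 in the low gate and 0.07 and -0.46 in the negative gate, higher in the high gate on each slide. Esrrb, an estrogen-related receptor, read -5.07 and -2.80 in the high gate, -0.72 and -0.62 in the low gate and -2.50 and -1.94 in the negative gate, a difference of -3.27 ± 0.84 from the low gate (adjusted p = 0.254). It was well above background on 5 of 6 arrays, and the difference ranged from -4.40 without high-gate array 2 to -2.14 without high-gate array 1, so its size is uncertain. Tfam and Nrf1 were chosen for naming after their values were seen.

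**Figure D4:**
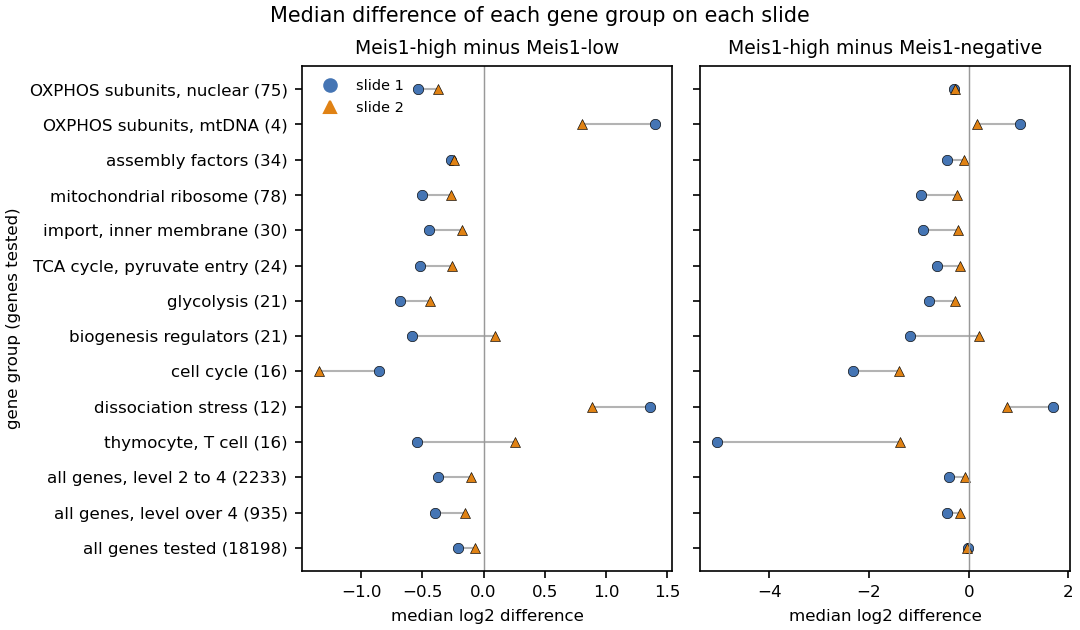
Median log2 difference of each gene group (rows, number of genes tested in parentheses) between Meis1-high and Meis1-low (left) and Meis1-negative (right), on slide 1 (circles) and slide 2 (triangles). The nuclear-encoded subunits lie at -0.54 and -0.38 on the left and the mitochondrially encoded ones at 1.40 and 0.80, on the side of the dissociation genes.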

How the data were processed

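RNA of 6 cell pools was amplified, labelled with Cy3 and hybridised to 1-colour Agilent arrays, per the labels. Per the file headers, the deposited processed signal is an intensity, background-subtracted and detrended within the array by Feature Extraction 9.5.3.1 and not scaled between arrays, with probe positions on mm9. Marks for well above background and outlier spots are also deposited. The authors' deposited value table is in log2 units centred on each probe's median (array medians from -0.17 to 0.16). How it was scaled between arrays is not given in the sources used here, and it served only as an alternative.

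Control and outlier spots were left out, log2 signals of a probe's spots were averaged, and each array's 75th percentile was subtracted. Probes marked well above background on the 2 arrays of some gate were tested (26560 of 41174); 40 probes with a missing value were left out. Symbols were updated through RefSeq, and the probe with the highest mean stood for a gene. Gates were compared with limma 3.58.1 in R 4.3.3 over all 6 arrays, with 3 residual degrees of freedom and Benjamini-Hochberg adjustment over all genes; the method was tested on simulated data. Having only 2 arrays in a gate limits precision.

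Members, gene lists and tests were chosen with earlier results of these data known. Named genes were the 5 with the smallest p per comparison, the 2 most and 2 least variable of each complex, isoform groups, Cycs, Cyc1, the Sdh genes, untested members, members whose probes disagree, and up to 3 genes of each other list; exceptions are stated. Promoters come from RefSeq, build GRCm38.p6. Alternatives were background, scaling, filters, probe choice, variance model, replicate block, deposited values and leaving out each array. Python 3.11.15, pandas 2.3.3 and matplotlib 3.10.9 served for tables and plots.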

Additional observations from a re-analysis of the deposited data

How the results depend on the processing

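Across 12 other settings, no member was called in the 3 comparisons. In the 6 fits that each left out 1 array, a gate rests on a single array, so only sizes are given for members. Cox6b2 between Meis1-high and Meis1-negative was -3.89 without Meis1-negative replicate 2. Counts over all genes moved more, and the cause was not tested: normexp background called 230, 303 and 120 genes between Meis1-high and Meis1-low, Meis1-high and Meis1-negative, and Meis1-low and Meis1-negative. In the second comparison a floor called 21, median scaling 78, the variance trend 4 and the filter on all arrays 6, and in the third median scaling called 14 and an adjusted p of 0.10 gave 3. Leaving out 1 array gave 0 to 949 genes in the second comparison and 0 to 1266 in the third. With the replicate block, which is slide and scan, 0 genes and 0 members were called in each comparison. The design names 2 experiments but the labels do not pair the pools, and the replicate differences of the gates correlated at 0.209, 0.128 and 0.125 across all genes and at 0.492, 0.310 and 0.385 across the members. The median member difference between Meis1-high and Meis1-low was below 0 in these settings, at -0.29 with quantile normalization and from -0.82 to -0.16 with 1 array left out. Array weights, the replicate block, the variance trend and the floor left it unchanged. At -0.16, without Meis1-low replicate 1, all genes had -0.15. Between Meis1-high and Meis1-negative the members' median was -0.45 with median scaling, -0.39 with normexp and -0.13 with quantile normalization. With 1 array left out it ranged from -0.60 to -0.072, and at -0.072, without Meis1-high replicate 2, all genes had -0.12. Between Meis1-low and Meis1-negative the members' median had no stable sign: 0.0032 with median scaling, -0.044 with normexp and -0.19 to 0.45 with 1 array left out. Atp5pb turned to 0.034 with the mean of its probes, since its other probes point the other way. COX2 between Meis1-high and Meis1-negative ranged from -0.27 to 0.97 with 1 array left out, at -0.27 without Meis1-high replicate 1 and -0.10 without Meis1-negative replicate 2. The 4 mitochondrially encoded genes were above 0 between Meis1-high and Meis1-low in these settings, their median ranging from 0.69 to 1.54 with 1 array left out. Array weights, the replicate block, the variance trend, the floor and the filters left that median unchanged at 1.11. Signals of dim isoforms such as Cox4i2 are limited by background.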
